A study of Mus musculus with 6 samples.

Results

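Ribosomal protein pseudogene copies are gene models that resemble the spliced messenger RNA of a ribosomal protein gene, inserted elsewhere in the genome. They were chosen by name and annotation: every row of the deposited expression table whose symbol begins with Rpl or Rps, carries -ps and an optional number, and whose biotype contains the word pseudogene. The rule found 290 of 54532 rows, of which 283 were annotated as processed pseudogenes and 7 as transcribed processed pseudogenes. Each copy was compared with its parent, the gene whose symbol precedes -ps. The copies named 61 parents, and 60 of these had a row of their own, Rpl48 being the exception. The parent Rps4l was itself annotated as a transcribed processed pseudogene. RNA was sequenced from hearts of wild-type mice of the outbred ICR stock, taken at day 4 as the sample titles give it. The 3 control hearts came from offspring of mothers given citric acid by intraperitoneal injection during gestation. The 3 hearts of the STZ group came from offspring of mothers that received STZ by the same route, read here as streptozotocin, a toxin of the insulin-producing beta cell that serves as a model of diabetes in pregnancy. The labels name no litter, so p-values measure the spread between these samples, which may share a mother. The comparison addresses how STZ given to the mother, as a model of diabetes in pregnancy, bears on gene expression in the offspring's heart. Whether the mothers were diabetic was not examined here.

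Ribosomal protein genes encode the proteins of the small (Rps) and large (Rpl) ribosomal subunits, and their messenger RNAs are short and among the most abundant of most cells. Processed pseudogenes arise when such a messenger RNA is reverse-transcribed and inserted into the genome, so a new copy has no introns and does not bring the parent's promoter with it. Younger copies remain almost identical to the parent, and older ones collect substitutions, gaps and premature stop codons. A short sequencing read from an almost identical stretch can fit both places in the genome, so the value listed for a copy depends on how a program assigns such reads. How it was done for these values is not given in the sources used here, and every value below is that of the annotated row, not proof of a transcript made there.

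The values are FPKM, a level per kilobase of gene length and per a scale that the submitters set for each library. Multiplied by the deposited gene length they were whole multiples of 1 step per library, so whole reads were recovered. The totals were 16707268 to 18082599 reads per library. All counts of reads below are these recovered reads, and a ratio of a copy to its parent is a ratio of reads, without length. The scale was 0.985 to 1.03 times the recovered reads in 5 libraries and 1.21 times in control 2. Control 2 stood apart in its markers as well. The summed level of 10 cardiomyocyte markers was 7267 FPKM there and 14492 to 17498 FPKM in the other 5 libraries, and that of 4 atrial markers was 6050 FPKM against 31.0 to 114. The sum over 7 fibroblast markers was 1368 FPKM in control 2 and 682 to 846 FPKM elsewhere. The 4 erythroid markers summed to 14443 FPKM there and 2227 to 4913 FPKM elsewhere. The 3 liver markers summed to at most 0.996 FPKM and the 3 pancreas markers to at most 0.402 FPKM in every library. Xist, the RNA of the inactive X chromosome, stood at 70.6 FPKM in control 3 and at no more than 0.0541 FPKM in the other 5. The Y chromosome genes Ddx3y, Eif2s3y, Kdm5d and Uty were at 0 in control 3 and at 1.58 FPKM or more in the other 5. By these genes control 3 was the only female heart, so sex was not balanced between the groups. In whole hearts, a change in the number of cells of a type and a change in RNA per cell cannot be told apart. Where control 2 bears on a value, the value without it is given.

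Most copies held few reads or none. Of the 290 copies, 142 had 0 reads in all 6 libraries, which allows up to 3 reads in each. Reads in any library were found for 148 copies, reads in every library for 80, and at least 10 reads in every library for 42. Over the 6 libraries 25 copies held 1000 reads or more, and 10 copies held 141519 of the 181202 copy reads, or 78.1%. The copies lay on 20 chromosomes, 35 of them on the X, and 12 on the chromosome of their parent. Their lengths ran from 151 to 2871 bases with a median of 456, and 91 overlapped another annotated gene, 11 of them an exon of it. Of the 290 copies, 287 had the same position in GENCODE M21 (GRCm38), whose transcript sequences were used here.

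Reads followed the likeness of a copy to its parent. An alignment to a parent transcript was found for 286 copies, with an identity of 70.9% to 100% and a median of 95.8%. Among the 58 copies below 90% identity, 8 had a read, and the highest held 51. Among the 68 copies from 90% to below 95%, 17 had a read, with 47 at most. From 95% to below 98% there were 66 copies, 33 with reads and a median of 0.5 reads. The 40 copies from 98% to below 99% had a median of 33.5 reads and 36 with reads. The 43 copies from 99% to below 100% had a median of 184 reads, 42 with reads and the highest total of all, 24318. The 11 copies identical to their parent over the aligned stretch had a median of 939 reads. Across the 286 copies, identity and total reads had a Spearman correlation of 0.73, and across the 146 of them with reads 0.68. These copies share libraries and often a parent, so the correlation is a description. The reads of the parent's row gave no such order: across 289 copies the Spearman correlation of parent reads and copy reads was 0.060. A parent's row can be low where its copies hold the reads. Rpl34 had 347 reads and its copies 22868, and Rps10 had 121 and its copies 9960. The correlation is thus not one with the level of the parent's message.

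**Figure D1:**
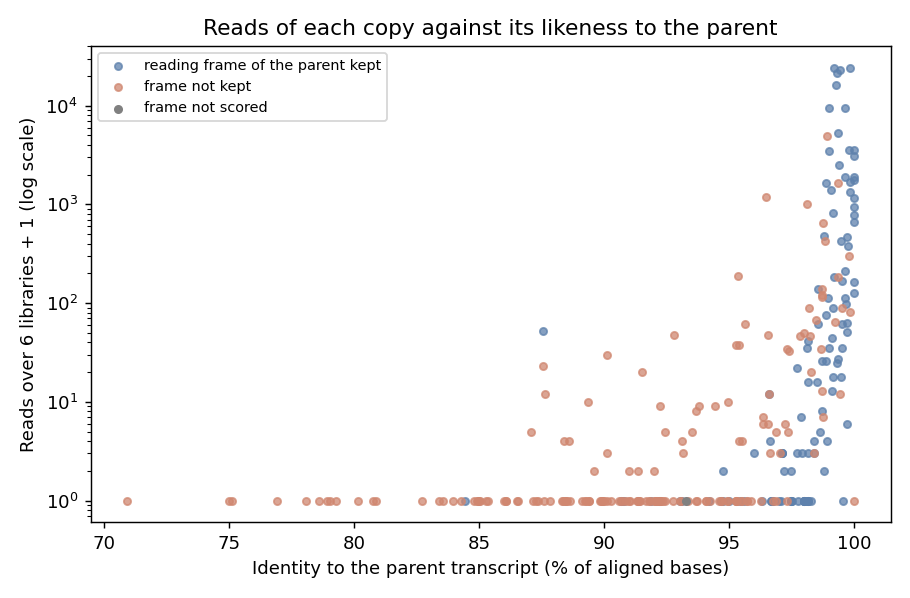
Each point is 1 of the copies aligned to a parent transcript, with its identity to the parent in percent of aligned bases on the horizontal axis and its reads over 6 libraries plus 1 on a logarithmic vertical axis, coloured by whether the parent's reading frame is kept. Copies below 95% identity reach 51 reads at most, and the copies with more than 1185 reads all lie at 98% identity or above.

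A reading frame scored as intact went with more reads as well, and the copies with one were also more alike to the parent. The frame counted as kept if the alignment had no gap and covered the parent's whole coding part, with a start codon and no stop codon within. A copy with any gap, even of whole codons, or with an alignment slightly short of the coding part, thus counted as not kept. The frame of the parent's protein was kept in 115 of the 285 copies that could be scored, and 80 of these had reads, with a median of 15. In the 170 copies scored as not kept, 66 had reads and the median was 0. The median identity was 98.6% in copies scored as kept and 92.2% in the others, so the share of each in the difference cannot be told apart here. A set of 31 copies held no stretch of 50 bases that was not also found in a transcript of another gene, and at 100 bases the number was 29. Of the 31, 21 had reads, 39936 in all. The other 10 had none, among them 9 copies of Rps12 and Rps23-ps1, which is identical to its parent and overlaps an exon of another gene. A sequence shared in full with another gene thus occurred both with and without reads.

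Summed over the 6 libraries, 7 copies held more reads than their parent, namely Rpl34-ps1, Rps10-ps2, Rps10-ps1, Rpl21-ps15, Rpl17-ps10, Rpl17-ps3 and Rps18-ps3. Rpl34 encodes a protein of the large subunit. Its copy Rpl34-ps1 (ENSMUSG00000068396, GRCm38 chromosome 6, 71124610 to 71124963, plus strand, in no other annotated gene) had 3051, 6717 and 3049 reads in controls 1 to 3 and 3913, 2985 and 3152 reads in STZ 1 to 3. The parent Rpl34, on chromosome 3, had 37, 137 and 42 reads in the controls and 39, 43 and 49 in the STZ hearts. The copy thus held 49.0 to 100 times the reads of the parent, and the groups overlapped. Per length the gap was larger, with 480 to 887 FPKM for the copy and 0.830 to 2.42 FPKM for the parent. On the log2 scale the difference of Rpl34-ps1, STZ minus control, was -0.19 (SE 0.273; limma, Benjamini-Hochberg (BH) adjusted p = 0.922) and 0.082 without control 2. The copy differs from the parent's coding sequence by 2 bases, T132C and C318G, both at the third position of a codon. Here and below a substitution gives the base of the parent, the position counted from 1 at the 5′ end of the copy, and the base of the copy. The stretch around the first of them is shown because it holds 1 of the only 2 coding bases that tell these genes apart, with that base in capitals. It spans chr6:71124736-71124815 on the plus strand of GRCm38, bases 127 to 206 of the copy.
Rpl34-ps1: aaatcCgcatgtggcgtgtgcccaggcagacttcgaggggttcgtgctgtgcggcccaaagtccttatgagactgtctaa
Rpl34: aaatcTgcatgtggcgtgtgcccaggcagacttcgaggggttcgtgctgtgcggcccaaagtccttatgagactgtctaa

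Rps10, a protein of the small subunit, showed the same order. Rps10-ps2 (ENSMUSG00000099764, chromosome 16, 20822145 to 20822640, minus strand) had 1665, 2234 and 1463 reads in the controls and 1613, 1250 and 1249 reads in the STZ hearts. The parent on chromosome 17 had 12, 37 and 19 reads against 24, 9 and 20. The ratio ran from 60.4 to 139 over the libraries, with values of both groups at each end. Fold changes are STZ over control throughout, and that of Rps10-ps2 was -0.31 on the log2 scale (SE 0.171; limma, BH-adjusted p = 0.922). A further copy, Rps10-ps1 on chromosome 3, had 80, 118 and 65 reads in the controls and 78, 61 and 81 in the STZ hearts, also above the parent in each library. Rps10-ps2 has 5 differences from the parent, of which T393C, T408C and A438G fall on the third codon position and C437G and G473A on the second. The stretch of bases 388 to 467 is shown since it holds 4 of the 5, with G473A beyond it (chr16:20822174-20822253, minus strand, differences in capitals).
Rps10-ps2: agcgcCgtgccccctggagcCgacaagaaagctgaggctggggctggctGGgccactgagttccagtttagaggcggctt
Rps10: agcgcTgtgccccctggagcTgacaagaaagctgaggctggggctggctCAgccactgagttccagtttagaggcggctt

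Rpl17, whose protein lines the exit tunnel of the large subunit, shared its reads with several copies. The parent had 1153, 1112 and 1208 reads in the controls and 1214, 904 and 772 reads in the STZ hearts. Rpl17-ps10 (chromosome 7) had 2519, 4100 and 2410 reads against 2855, 2197 and 1969, above the parent in every library. Rpl17-ps3 (chromosome 12) had 1436, 2518 and 1497 reads against 1807, 1377 and 798, again above the parent in every library, though by 1.03 times only in STZ 3. In that same library Rpl17-ps5 (chromosome 5) stood outside its usual range, with 1345 reads there and 73 to 154 in the other 5. The parent and its 11 copies together had 5232, 7954 and 5264 reads in the controls and 6017, 4574 and 4900 in the STZ hearts, so the total of STZ 3 lay within the range of the other libraries. Rpl17-ps5 was picked out after its values were seen.

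For Rpl21 and Rps18 the parent was not the main holder of reads either, but nor was the copy. Rpl21-ps15 (X chromosome, in an intron of Wnk3 on the opposite strand) had 261, 850 and 509 reads in the controls and 289, 274 and 340 in the STZ hearts, and Rpl21, a protein gene of the large subunit, 40, 61 and 152 against 41, 29 and 31. BC004004, a gene annotated as protein-coding on chromosome 17 that shares sequence windows with Rpl21, had 1552, 1815 and 1246 reads against 1458, 1334 and 1419. Rps18-ps3 (chromosome 8, 107262793 to 107263248, minus strand) had 350, 387 and 305 reads against 308, 172 and 138, and Rps18, a protein gene of the small subunit, 49, 255 and 113 against 142, 98 and 111. Gm11361, annotated as protein-coding on chromosome 13 and sharing windows with Rps18, had 940, 2444 and 764 reads against 946, 605 and 813. Both of these protein-coding rows held more reads than the parent and the named copy in every library.

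**Figure D2:**
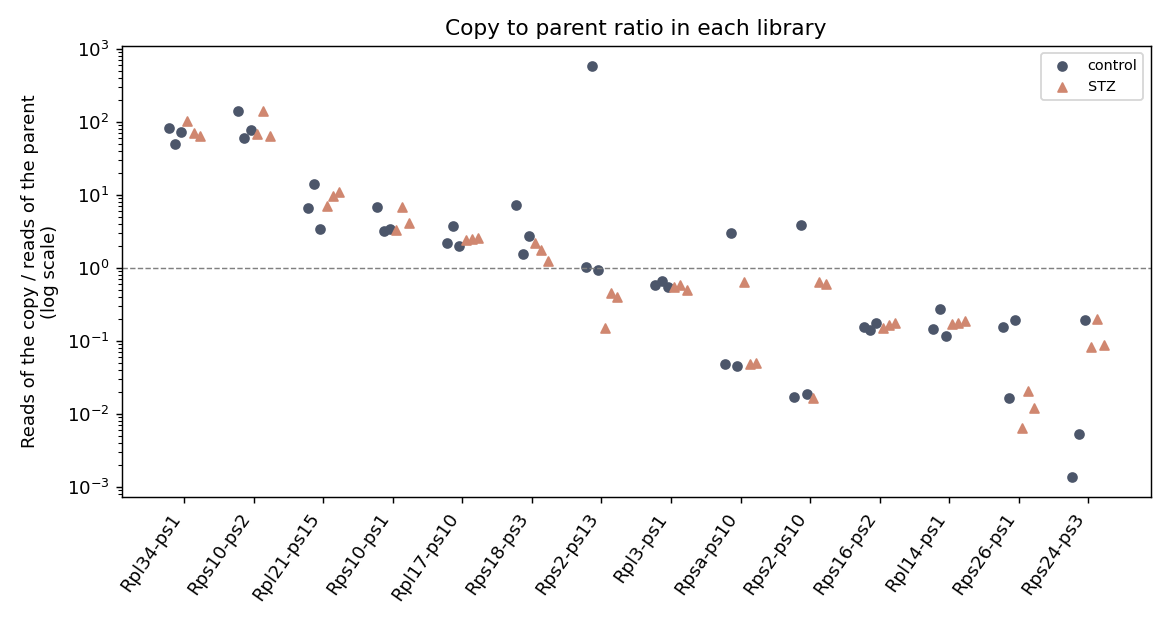
Reads of a copy divided by reads of its parent, for 14 copies in each library (circles control, triangles STZ) on a logarithmic axis, with a dashed line where both are equal. Rpl34-ps1 and Rps10-ps2 lie at 49.0 or more in every library, Rps2-ps13 runs from 0.150 to 568, and Rps16-ps2 keeps between 0.140 and 0.174.

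The parent and its copies were high in different libraries for Rps2, which encodes a core protein of the small subunit near the messenger RNA entry. The parent (chromosome 17, 24718116 to 24721929, plus strand) had 4397, 19 and 4390 reads in controls 1 to 3 and 10937, 3780 and 4206 reads in STZ 1 to 3. Rps2-ps13 (ENSMUSG00000081684, X chromosome, 52898588 to 52899469, plus strand, in no other annotated gene) had 4497, 10796 and 4056 reads in the controls and 1636, 1685 and 1648 reads in the STZ hearts. The copy was highest in control 2, the library in which the parent was nearly without reads, and all 3 controls lay above all 3 STZ hearts. Rps2-ps10 (chromosome 18, in an intron of Pde6a on the opposite strand) had 74, 72 and 82 reads in the controls and 176, 2408 and 2518 in the STZ hearts. It was thus high in STZ 2 and 3 and low in the other 4 libraries, with no overlap of the groups. Rps2-ps6 (chromosome 14) had 180, 1 and 192 reads against 527, 188 and 97, at 0.0231 to 0.0526 of the parent in every library, so it had 1 read in the library where the parent had 19.

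The sum over the Rps2 family moved less than its parts. Rps2 and its 10 copies together held 9151, 10892 and 8721 reads in the controls and 13283, 8063 and 8469 in the STZ hearts. Between the highest and lowest library the sum differed 1.61-fold in its share of the library's reads, the parent alone 581-fold and the copies together 4.59-fold. Without control 2 the folds were 1.61 for the sum, 2.75 for the parent and 2.08 for the copies. On the family sum the log2 fold change was 0.082 (SE 0.219; limma, BH-adjusted p = 0.947) and 0.072 without control 2. That of Rps2 alone was 2.49 (SE 1.72; limma, BH-adjusted p = 0.922) and 0.30 without control 2.

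Rps2-ps13 has the full reading frame of Rps2, with 7 differences in 882 bases, and all 7 lie at the third codon position (T60A, A84G, T204C, G300A, C444T, C453A and T756C). The stretch with C444T and C453A is shown, since a read that covers it can separate the 2 genes (chrX:52898966-52899045, plus strand, differences in capitals).
Rps2-ps13: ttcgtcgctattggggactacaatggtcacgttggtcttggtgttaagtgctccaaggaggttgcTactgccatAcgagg
Rps2: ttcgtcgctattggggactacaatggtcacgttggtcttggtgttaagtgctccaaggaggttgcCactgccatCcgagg

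Rpsa, a protein of the small subunit also known as the laminin receptor precursor, gave a similar picture in other libraries. The parent (chromosome 9) had 15048, 3981 and 15094 reads in the controls and 10826, 11854 and 13916 in the STZ hearts. Rpsa-ps10 (ENSMUSG00000047676, chromosome 3, 150072658 to 150073542, minus strand) had 723, 11927 and 668 reads against 6966, 568 and 682. The copy was high in control 2 and STZ 1, and the parent had its lowest values in the same 2 libraries. In the other 4 libraries the copy held 0.0443 to 0.0490 of the parent's reads, 0.643 in STZ 1 and 3 times the parent's in control 2. The sum of Rpsa and its 9 copies was 15938, 15980 and 15953 reads in the controls, nearly equal over the 3 hearts, and 17926, 12531 and 14708 in the STZ hearts. It differed 1.36-fold between the highest and lowest library, against 3.92-fold for the parent and 16.7-fold for the copies. Without control 2 the folds were 1.36 for the sum, 1.43 for the parent and 9.97 for the copies. The log2 fold change of Rpsa-ps10 was -0.30 (SE 1.30; limma, BH-adjusted p = 0.973) and turned to 0.95 without control 2. Rpsa-ps2 (chromosome 10), picked out after its values were seen, had 158, 9 and 174 reads against 104, 105 and 101 and was lowest in control 2, as the parent was. Rpsa-ps10 differs from Rpsa at C25A on the first codon position and at T210C, C219T, C345G, C696T and G858A on the third. The stretch with T210C and C219T follows (chr3:150073259-150073338, minus strand, differences in capitals).
Rpsa-ps10: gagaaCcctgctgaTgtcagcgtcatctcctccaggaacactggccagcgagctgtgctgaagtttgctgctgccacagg
Rpsa: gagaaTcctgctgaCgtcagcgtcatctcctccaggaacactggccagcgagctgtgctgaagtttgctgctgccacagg

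**Figure D3:**
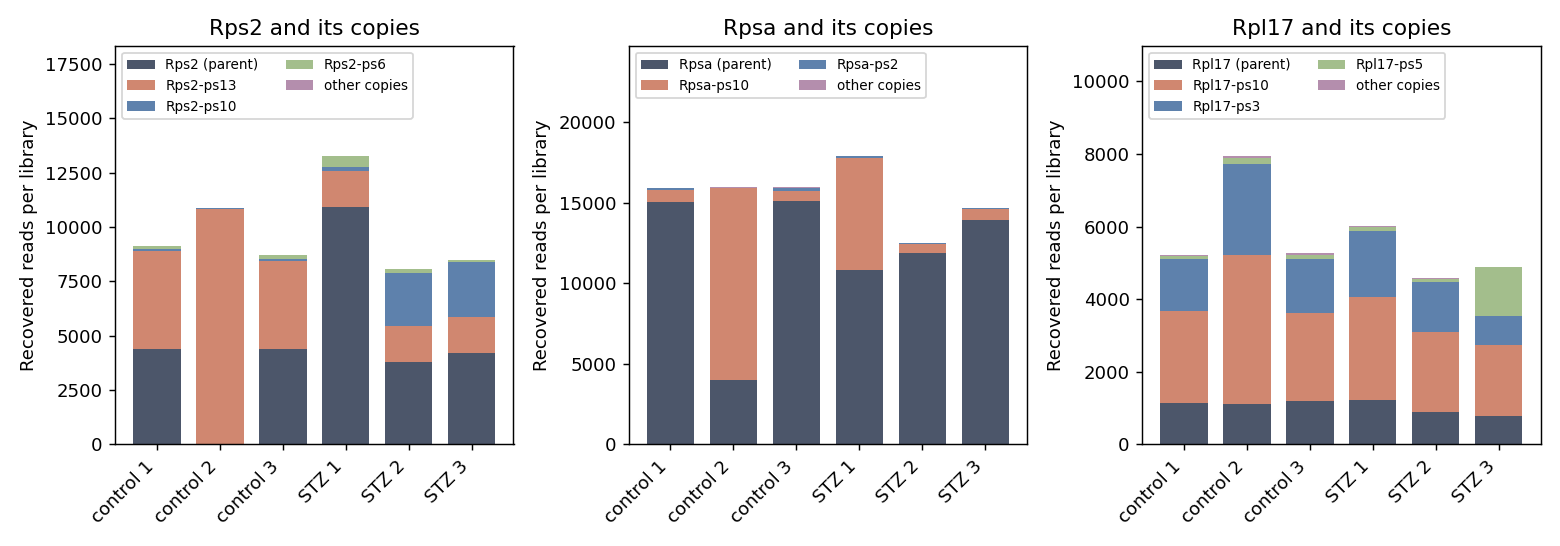
Stacked recovered reads per library of Rps2, Rpsa and Rpl17 and of their copies, for controls 1 to 3 and STZ 1 to 3. Rps2 is nearly absent in control 2, where Rps2-ps13 holds 10796 reads, Rpsa-ps10 is high in control 2 and STZ 1, and the height of the whole Rpsa bar stays between 12531 and 17926 reads.

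Other abundant copies differed in how steady their ratio to the parent was. Rpl3-ps1 (ENSMUSG00000084349, X chromosome, 13202571 to 13203780, plus strand) is a copy of the gene for a protein near the catalytic centre of the large subunit. It had 3900, 5324 and 3767 reads in the controls and 4210, 3359 and 3487 in the STZ hearts, and Rpl3 6694, 8155 and 6882 against 7654, 5906 and 7078. The ratio stayed between 0.493 and 0.653, and the copy's highest library held 1.56 times its lowest as a share of the library's reads, the smallest spread among the copies with a mean of 20 reads or more. Its groups overlapped, and its log2 fold change was -0.16 (SE 0.151; limma, BH-adjusted p = 0.922). Rpl14-ps1 (chromosome 7, in an intron of Trpm4 on the opposite strand) had 539, 1907 and 462 reads against 739, 581 and 679, a ratio of 0.115 to 0.271 to Rpl14, which encodes a protein of the large subunit, with the highest value in control 2.

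Rps16-ps2 (ENSMUSG00000060419, chromosome 5, 129128077 to 129128517, minus strand, in an intron of Adgrd1 on the opposite strand) is identical to Rps16, a gene of the small subunit, over its whole length. It had 521, 1052 and 508 reads in the controls and 533, 443 and 502 in the STZ hearts, always 0.140 to 0.174 of the parent. Its first 80 coding bases are shown as the case without a difference (chr5:129128438-129128517, minus strand, no capitals since no base differs).
Rps16-ps2: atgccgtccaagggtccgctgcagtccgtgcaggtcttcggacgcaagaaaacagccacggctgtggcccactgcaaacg
Rps16: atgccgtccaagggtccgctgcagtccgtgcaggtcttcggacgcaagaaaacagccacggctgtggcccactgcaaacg
Among the other copies identical to their parent, the ratio was nearly as steady for Rpl31-ps8 (0.111 to 0.146), Rpl28-ps1 (0.0606 to 0.0831) and Rps6-ps4 (0.0398 to 0.0507). It was not for Rpl38-ps2 (0.0751 to 0.417) or Rpl10a-ps1 (0.0209 to 0.0753). These copies were chosen for their identity, not by the naming rule, and are only a part of the 11 identical copies. Others, such as Rpl10-ps1 and Rpl15-ps3, are left out here, so the share of identical copies with a steady ratio is not given.

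Between STZ and control hearts no copy passed the limma threshold with all 6 libraries. The test was limma on log2(FPKM + 1) for rows at 1 FPKM or more in at least 3 libraries, with p-values BH-adjusted over all 12431 rows tested and a threshold of 0.05. It called 2 rows higher in STZ hearts, 0.0161% of those tested, and 1 lower, 0.00804%. Of the 290 copies 62 were tested and 0 were called, and the lowest adjusted p was 0.667. At an unadjusted limma p under 0.05, 2 copies were higher and 7 lower, where 1.17% and 1.42% of all rows tested were. The groups did not overlap in FPKM for 2 copies that were higher and 8 that were lower, and over all rows tested the shares were 4.92% and 3.62%, or 8.54% together. The remaining 228 copies were too low to test, and of the tested ones 7 reached 1 FPKM in all 3 controls but not in all STZ hearts, and 7 the reverse.

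Fold changes of the tested copies leaned to lower values with control 2 and little without it. Of the 62 copies 45 had a negative log2 fold change and 17 a positive one, with a median of -0.26. Over all rows tested 42.3% were below 0 and the median was 0.031. Without control 2, 33 of 59 tested copies were negative, and the median was -0.036, with -0.0014 over all rows. Summed over all copies there were 105, 148 and 113 copy reads per 1000 parent reads in the controls and 117, 113 and 102 in the STZ hearts. The means were 122 ± 23.2 and 111 ± 7.92 (SD, n = 3 each) and the groups overlapped. The difference of -11.3 turned to 1.83 without control 2 and to 3.50 without Rps2-ps13. It was -17.9 for copies annotated as processed pseudogenes only, and -20.8 for copies that overlap no other annotated gene.

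Rps2-ps13 had the lowest p of all copies. It stood at 303, 572 and 263 FPKM in the controls and 104, 114 and 101 FPKM in the STZ hearts, with no overlap. The log2 fold change was -1.74 (SE 0.294; limma, unadjusted p = 0.000633, BH-adjusted p = 0.667). Without control 2 it was -1.40 (SE 0.106; limma, BH-adjusted p = 0.0239), past the threshold that 0.0164% of rows passed as higher and 0.0245% as lower in that fit. Over all alternatives its limma BH-adjusted p ran from 0.0239 to 0.999. The ratio to Rps2 was also higher in all controls (1.02, 568 and 0.924) than in the STZ hearts (0.150, 0.446 and 0.392). The copy lies on the X chromosome. Its level in control 3, the library with Xist, was close to that in control 1, where Xist was at 0.0199 FPKM.

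Rps26-ps1 (ENSMUSG00000059775, chromosome 8, 107439131 to 107439579, minus strand) is the only copy of Rps26 matched, a protein gene of the small subunit at the messenger RNA exit. It is annotated as transcribed and lies in an intron of Wwp2 on the opposite strand. Its level was 70.6, 15.5 and 72.1 FPKM in the controls and 3.51, 8.88 and 5.88 FPKM in the STZ hearts, from 534, 149 and 567 reads against 28, 67 and 49. Controls 1 and 3 were far above all others, control 2 was closer to the STZ hearts, and the groups did not overlap. The log2 fold change was -2.71 (SE 0.605; limma, BH-adjusted p = 0.922). Without control 2 it was -3.42 (SE 0.301), with a limma BH-adjusted p of 0.0488. It was 0.0547 when the rows tested were those of the fit with all libraries, so the call rests on which rows enter. Over all alternatives the limma BH-adjusted p of Rps26-ps1 ran from 0.0488 to 0.999. Rps26 had 3524, 9132 and 3001 reads in the controls and 4456, 3320 and 4097 in the STZ hearts, and the family sum had a log2 fold change of -0.30, or 0.021 without control 2. Of the 4 differences 2 are coding, C47T and G287A, both at the third codon position. The stretch with C47T is shown (chr8:107439459-107439538, minus strand).
Rps26-ps1: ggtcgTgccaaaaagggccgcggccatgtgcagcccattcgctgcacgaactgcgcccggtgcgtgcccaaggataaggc
Rps26: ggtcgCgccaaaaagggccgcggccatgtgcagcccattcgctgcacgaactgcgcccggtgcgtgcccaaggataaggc

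Rps2-ps10, also annotated as transcribed, had the largest positive fold change among the copies whose groups did not overlap. It stood at 4.55, 3.49 and 4.85 FPKM in the controls and 10.3, 148 and 141 FPKM in the STZ hearts. The log2 fold change was 3.56 (SE 0.950; limma, BH-adjusted p = 0.922). Without STZ 1 it was 4.79 (SE 0.160; limma, BH-adjusted p = 0.00217), where 0.0163% of rows passed as higher and 0.00814% as lower. Over all alternatives its limma BH-adjusted p ran from 0.00217 to 0.9999. The library left out is the one in which the parent Rps2 held 10937 reads.

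The next copies without overlap differed less or held few reads. Rpl30-ps2, 92.8% identical to a gene of the large subunit, had 3, 0 and 7 reads in the controls and 12, 10 and 15 in the STZ hearts, a log2 fold change of 1.11. Rpl35a-ps2, a copy of another large subunit gene, had 93, 126 and 98 reads against 80, 22 and 52, a log2 fold change of -1.04. Rps18-ps3 stood at 45.6, 39.7 and 38.2 FPKM in the controls and 38.0, 22.4 and 16.3 FPKM in the STZ hearts, with -0.74 on the log2 scale. Rpl17-ps8, on the X chromosome in an intron of Heph on the same strand, had 14, 33 and 18 reads against 14, 12 and 7, with -0.49. Its groups were apart in FPKM only through the scale of each library, since control 1 and STZ 1 held the same 14 reads. For each of these 4 the limma BH-adjusted p was 0.922. Values of this few reads, and of copies that share nearly all their sequence with other genes, are uncertain.

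**Figure D4:**
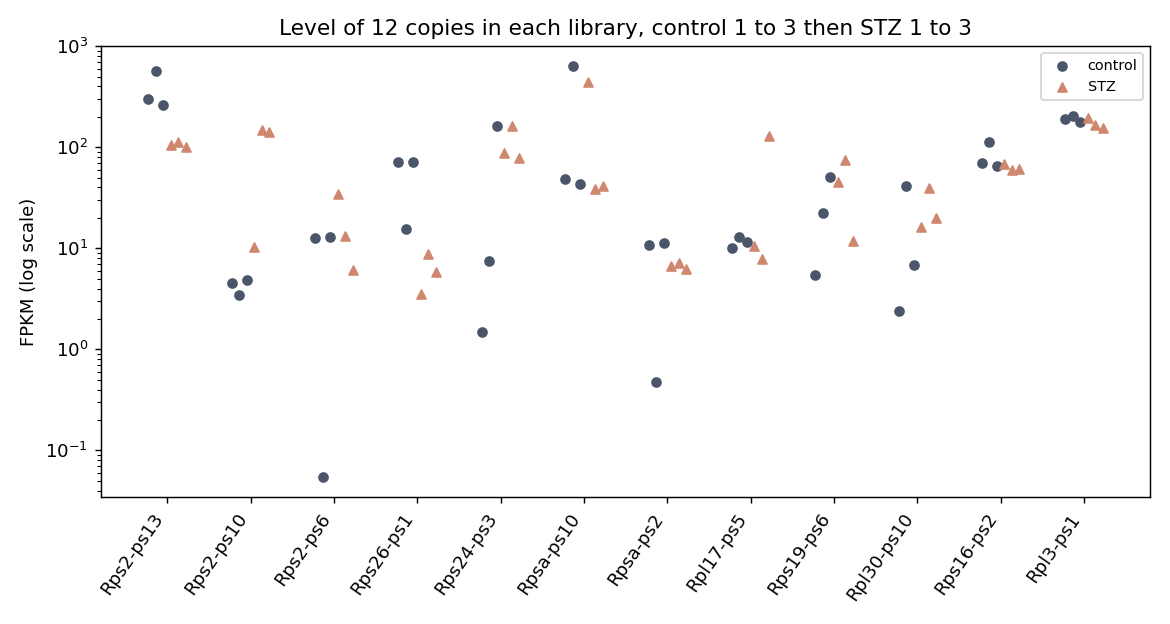
FPKM of 12 copies in each library on a logarithmic axis, circles for controls and triangles for STZ hearts, each set drawn in the order 1 to 3. Rps2-ps13 and Rps26-ps1 are higher in all controls than in any STZ heart, Rps2-ps10 is lower, and the other 9 overlap.

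Several copies were high in some libraries of both groups and close to 0 in others, without following the labels. They were picked out after their values were seen. Rps24-ps3 (ENSMUSG00000081049, X chromosome, 79195047 to 79195448, plus strand), a copy of a small subunit gene, had 10, 64 and 1139 reads in the controls and 623, 1086 and 580 in the STZ hearts. Rps24 itself had 7373, 12019 and 5911 reads against 7728, 5441 and 6647, so the copy held 0.00136 of the parent's reads in control 1 and 0.193 in control 3. Rps19-ps6 (chromosome 12, in an intron of Tecpr2), a copy of a small subunit gene mutated in Diamond-Blackfan anaemia, had 40, 211 and 391 reads against 349, 551 and 95. Rpl30-ps10 (X chromosome) had 14, 306 and 42 reads against 100, 233 and 129. Control 1 was the lowest library for all 3 copies and STZ 2 among the 2 highest, while control 3 was high for Rps24-ps3 and Rps19-ps6 and low for Rpl30-ps10. Rps24-ps3 has 4 differences from Rps24, of which C207T, G273C and G360T are at the third codon position and C380T at the second. The stretch with the last 2 is shown (chrX:79195352-79195431, plus strand, differences in capitals).
Rps24-ps3: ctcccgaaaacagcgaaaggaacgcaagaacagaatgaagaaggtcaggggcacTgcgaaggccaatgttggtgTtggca
Rps24: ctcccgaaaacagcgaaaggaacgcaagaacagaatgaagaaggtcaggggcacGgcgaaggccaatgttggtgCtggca

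Over all copies with a mean of at least 20 reads, the spread between libraries was wide. For each row the highest library was divided by the lowest, in shares of the library's reads and with values under 3 reads set to 3. The 46 copies had a median fold of 3.97, and 23 of them (50%) exceeded 4-fold. The median was 2.24 for 78 cytosolic ribosomal protein genes, of which 20.5% exceeded 4-fold. For 401 other processed pseudogenes it was 2.15 with 21.4%, and for 12777 protein-coding genes 1.54 with 8.02%. The other processed pseudogenes are all those the rule did not match. Their class includes rows that share sequence windows with the copies, such as Gm12191 for Rpl30 and Gm45855 for Rps2. Without control 2 the median of the copies was 1.96, with 30.4% over 4-fold. The medians were then 1.32 for ribosomal protein genes, 1.74 for other processed pseudogenes and 1.30 for protein-coding genes. These shares are descriptions, without a test of the difference.

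Whether the sum of a parent and its copies varied less than both of its parts differed between families. Only copies matched by the rule enter a sum, and other rows that share sequence windows with them are left out. Among those left out is Gm12191, a processed pseudogene that shares windows with copies of Rpl30. It had 89, 2451 and 721 reads in the controls and 134, 296 and 118 in the STZ hearts. Of the 32 parents with a copy at a mean of 20 reads or more, the sum had a smaller fold between libraries than the parent and than the copies in 11, among them Rps2, Rpsa, Rps24, Rps26 and Rps19. In the other 21 it did not lie below both, and without control 2 it lay below both in 18 families. Counted apart, it was below the copies in 24 families and below the parent in 19. With reads above the floor, the fold of a sum cannot exceed the larger fold of its parts. A sum below either the parent or the copies is thus fixed by arithmetic, and a lower median of the sum follows in part from it. Whether parent and copies offset each other was not tested. The median folds were 3.57 for the copies, 2.72 for the parent and 2.17 for the sum. Without control 2 they were 1.55, 1.36 and 1.30, and the sum varied less than the copies in 26 families. For Rps24 the sum differed 1.74-fold and the parent 2.08-fold, against 112-fold for the copy. With every family replaced by its sum, limma called 3 of 12372 rows, the same number as in the fit of single rows.

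**Figure D5:**
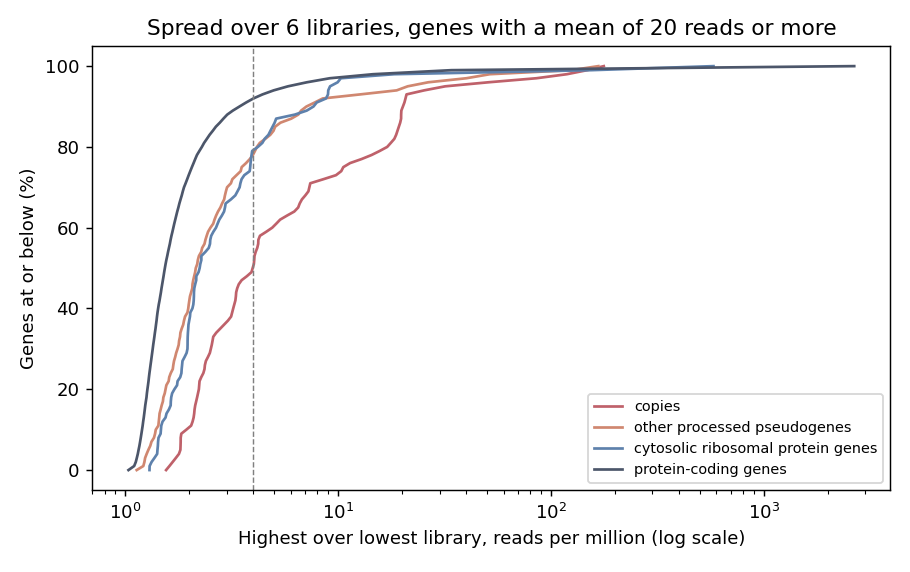
Cumulative share of genes, in percent, at or below a given fold between the highest and the lowest library, both scaled to library reads (logarithmic axis), for rows with a mean of 20 reads or more, with a dashed line at 4-fold. The line of the 46 copies lies to the right of the other 3 classes up to 98% of genes, with 50% of copies at more than 4-fold, and single genes of other classes reach higher folds at the top.

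Parents with more copies tended to have more copy reads, with a Spearman correlation of 0.57 across 60 parents, given as a description. Of the 17 parents with a row and 1 copy, 9 had 0 copy reads, and the 15 parents with 7 copies or more had at least 238. Among the 5 parents with the most copies, the reads lay mostly in 1 copy. Rpl31, of the large subunit, had the most copies, 24, of which 11 had reads, and 3107 of their 3207 reads were in Rpl31-ps8. Rps12, of the small subunit, had 23 copies, of which 8 had reads, 243 in all, beside 15642 of the parent. The 15 copies of Rpl21 held 2742 reads, 2523 of them in Rpl21-ps15. Rps19 had 14 copies with 1900 reads, 1637 in Rps19-ps6. Rpl23a had 14 copies as well, and Rpl23a-ps3 was the only one with reads, 3545 in all and 0.154 to 0.197 of the parent in each library. Rps12 was the exception, its leading copy Rps12-ps4 holding 88 of the 243. The median parent had 2 copies, and 18 parents had 1.

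The genes that make the ribosome did not pass the limma test either. Of 79 cytosolic ribosomal protein genes 75 were tested, 0 were called and 0 had an unadjusted p under 0.05. Their log2 fold changes were negative for 68 and positive for 7, with a median of -0.24. Without control 2 the median was -0.030, with 45 of 75 negative. Of 15 other translation genes whose messages begin with a terminal oligopyrimidine tract, 7 were higher and 8 lower, with a median of -0.0015, or -0.034 with 9 lower without control 2. Of 9 ribosomal protein paralogues 6 were tested, 4 higher and 2 lower, with a median of 0.15, and without control 2 the median was -0.035 with 4 of 6 lower. Other processed pseudogenes supplied all 3 rows that limma called, among 510 tested of 9483, with 39 at an unadjusted p under 0.05 and a median of -0.048, or -0.013 without control 2. That class includes rows that share sequence windows with the copies.

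The rule left out 8 rows that carry a copy's name but are annotated as protein-coding. Rps12-ps3 had 2030, 1994 and 1697 reads in the controls and 1755, 1234 and 1312 in the STZ hearts, more than all 23 matched copies of Rps12 together. Rpl9-ps6 had 459, 1016 and 404 reads against 356, 332 and 354. Of the other 6, Rpl27-ps3, Rpl10-ps3 and Rpl36a-ps1 had at most 54 reads in a library, and Rpl9-ps1, Rpl36-ps4 and Rpl13a-ps1 were listed at 0. For both abundant rows the biotype, and not the level, kept them out of the copies described above.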

How the data were processed

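RNA from 6 hearts was sequenced by the submitters, with total RNA taken up by a column kit and libraries made with a SMARTER mRNA kit, per the labels' protocols. The build was GRCm38 (mm10), per the submitters' processing notes. Not given in the sources used here are the aligner, the counting, its strand setting and its handling of reads with several matches. The deposited values are FPKM scaled by the authors for each library, and 100% of them were whole reads within 0.01 after multiplication by gene length. Overlapping and antisense rows may hold each other's reads.

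Fits used limma 3.58.1 (R 4.3.3) on log2(FPKM + 1), its prior variance following the mean level, and this scale understates changes of low rows. They were two-sided and were tested on simulated data with the same spread for all rows and no library set apart. That check does not cover a library that stands apart as control 2 does. Identity came from blastn 2.17.0 (e-value limit 1e-10) against GENCODE M21 transcripts. Shared windows were 50 bases. Python 3.11.15 and matplotlib 3.10.9 drew the figures. The members, lists and tests were chosen with earlier results of these data known. Named copies were those called in any fit, the 10 with most reads, the 5 with the highest ratio to the parent, the 5 lowest p per direction without overlap, and Rps2-ps13, with their parents and the 5 parents with most copies. Others are marked in the text.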

Additional observations from a re-analysis of the deposited data

How the results depend on the processing

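With all 6 libraries limma called 3 rows, and it called 2 with a pseudocount of 0.1, without a filter, and with a mean of at least 5 FPKM. The number was 1 with voom on the recovered reads, 0 with the replicate block and 2 to 5 when 1 library was left out, the 5 being without control 2. Of copies limma called 0 (9 at an unadjusted p under 0.05; voom 6, the block 11), and 0 to 2 with 1 library left out: 2 without control 2, 1 without STZ 1, and 0 without any of the other 4. On the rows of the full fit, an alternative chosen after seeing the data, it called 1 copy without control 2. Deviations of same-numbered libraries correlated at 0.021, -0.041 and 0.092, all under 0.1, and the main fit used no pairing. Controls 1 and 3 correlated best with the STZ library of their own number, and control 2 with STZ 1 (0.081). The copy reads per 1000 parent reads differed by -11.3, by 3.50 without Rps2-ps13 and by -20.0 to 1.83 with 1 library left out. They differed by -17.9 for copies annotated as processed pseudogenes only, and by -20.8 for copies that overlap no other annotated gene. The number of copies with at least 10 reads in every library was 42, and 29 to 63 under other limits. The median fold of the copies fell from 3.97 to 1.96 without control 2. Among 31 named rows, 370 values under the alternatives kept direction and side of the threshold, 4 passed it and 26 changed sign, none of them past the threshold. With 1 library left out, the log2 fold changes that turned ran from -0.51 to 0.36 for Rpl14-ps1, -0.34 to 0.082 for Rpl34-ps1, -1.45 to 0.42 for Rpl35a, -0.27 to 0.040 for Rps12, -0.43 to 0.23 for Rps26, -0.35 to 0.77 for Rpsa, -1.45 to 0.95 for Rpsa-ps10, -0.092 to 0.053 for Rpl3, -0.21 to 0.35 for Rpl30 and -0.33 to 0.38 for Rps18. Without control 2, on either set of rows, the values were 0.36 for Rpl14-ps1, 0.082 for Rpl34-ps1, 0.42 for Rpl35a, 0.040 for Rps12, 0.23 for Rps26, -0.35 for Rpsa, 0.95 for Rpsa-ps10 and -0.030 for Rpl30. Rpl30 was at -0.029 on recovered totals and with voom, and Rps18 at -0.032 on recovered totals. The cause of these changes was not tested. A planned edgeR fit on the recovered reads was not run. Copies of few reads are limited by depth, and 142 copies had none.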
